A study of Homo sapiens with 8 samples.

Results

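RNA was compared between A2780 cells given olaparib for 24 h and A2780 cells given DMSO, the solvent control, for 24 h. A2780 is an established human ovarian carcinoma line, and polyadenylated RNA was sequenced from 2 libraries of each group, which the labels call biological repeats. Each other group, palbociclib alone and the combination of olaparib with palbociclib, also had 2 libraries, so that the study held 8 in all. The genes described are those with a mean of at least 1 FPKM (fragments scaled by exon length and library depth, the authors' unit) over the 8 libraries: 12443 of the 31721 genes listed, with 19278 left out as too low. The sources used here state no dose. Whether the 2 libraries of a group came from separate cultures is not said in the labels either, so the p-values speak only of the spread between these libraries, and that spread may be technical.

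Olaparib blocks PARP1 and PARP2, poly(ADP-ribose) polymerases that bind DNA breaks and mark them for repair, and it also holds these enzymes on the DNA. Damage left at replication forks activates the kinases ATM and ATR, which stabilise the transcription factor p53. p53 is held low by the ubiquitin ligase MDM2, itself a p53 target, and turns on genes for growth arrest, cell death and repair. Ribosome production in the nucleolus, tRNA charging and protein folding are the main costs of cell growth, and their genes are known targets of the transcription factor MYC, which binds the sequence CACGTG.

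The whole reads behind the FPKM values gave depths of 23398802 and 29087336 reads for the olaparib libraries and 34057055 and 31183429 reads for the DMSO libraries. Counting noise alone did not account for the gap between replicate libraries, whose chi-square over its degrees of freedom was 3.86 within olaparib and 2.37 within DMSO. Epithelial markers such as EPCAM, KRT8 and CDH1 were at most 0.607 FPKM in these 4 libraries, although the labels call the morphology epithelial. Their sum was 1.72 and 1.71 FPKM in the olaparib libraries and 1.29 and 1.13 FPKM in the DMSO libraries. The mesenchymal markers, led by VIM, TWIST1 and COL3A1, summed to 648 and 671 FPKM with olaparib and to 658 and 671 FPKM with DMSO. Of these 11 markers 9 passed the level filter, and the others, FN1 and ZEB2, were at most 0.220 and 0.0623 FPKM in these 4 libraries. The ovarian marker PAX8 was listed at 0 in all 4 libraries, and markers of blood and endothelial cells stayed at or under 0.465 FPKM. Bulk RNA cannot tell fewer cells of a kind from less RNA per cell.

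A gene was counted as changed when limma's moderated test on log2(FPKM + 1) gave an adjusted p (Benjamini-Hochberg over all 12443 genes, two-sided) under 0.05. By that rule 514 genes were higher with olaparib (4.13%) and 1307 were lower (10.5%), 14.6% in all. The changes were small: genes called higher had a median log2 fold change of 0.32, and genes called lower a median of −0.22. Over all tested genes the median was −0.03. Beyond 2-fold, on the scale of log2(FPKM + 1), there were 12 genes among those higher, 5 of them protein-coding (FDXR, PHLDA3, CDKN1A, BTG2 and GDF15), and 6 among those lower. The direction of the calls depended on the scaling, since 28.2% of calls were higher on the deposited scale, 38.8% with each library's trend on transcript GC content removed, 60.2% under quantile normalisation and 66.5% with TPM, which scales every library to the same total.

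Genes activated by p53 made up most of the upper end of the response among protein-coding genes, 10 of the 12 highest. Of 110 listed p53 targets 108 were in the table and 90 passed the level filter; 52 of the 90 rose with olaparib, none fell and 38 did not pass, beside the 4.13% of all tested genes that rose. Both olaparib libraries lay above both DMSO libraries for 75 of the 90 targets and below them for 3, beside 23.3% above and 38.6% below over all genes. The median log2 fold change of the 90 targets was 0.26, within a range of −0.17 to 1.34.

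Of the growth arrest genes 4 of 9 rose (44.4%, beside 4.13% of all genes). CDKN1A, which encodes the cyclin-dependent kinase inhibitor p21, had 30.5 and 31.7 FPKM in the olaparib libraries and 12.4 and 12.7 FPKM in the DMSO libraries. The groups were far apart, with a log2 difference of 1.24 ± 0.06 (SE, n = 2 each; limma adjusted p = 0.00175). BTG2, an antiproliferative adaptor of the mRNA deadenylation complex, had 19.8 and 21.6 FPKM with olaparib and 8.63 and 8.90 FPKM with DMSO, a log2 fold change of 1.15 ± 0.06. CCNG2, an unconventional cyclin linked to arrest, had 7.16 and 6.53 FPKM with olaparib and 4.53 and 4.63 FPKM with DMSO. GADD45A, a stress sensor that restrains the cell cycle, rose by 0.27. Among the 5 that did not pass were BTG1 at 0.11 and E2F7 at 0.14 on the log2 scale.

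Of the cell death genes 12 of 17 rose (70.6%, beside 4.13% of all genes). PHLDA3, which competes with AKT for membrane lipids, had 20.2 and 22.1 FPKM with olaparib against 7.25 and 8.55 FPKM with DMSO, a log2 fold change of 1.32 ± 0.11. BBC3, the BH3-only protein PUMA, had 9.92 and 12.4 FPKM with olaparib and 5.36 and 5.40 FPKM with DMSO. The olaparib libraries were the more scattered ones for this gene, yet neither reached down to DMSO (0.92 ± 0.11, limma adjusted p = 0.0108). TP53I3, a quinone oxidoreductase tied to oxidative stress, had 44.1 and 48.9 FPKM with olaparib and 22.7 and 26.3 FPKM with DMSO. CYFIP2, an actin regulator, was weakly expressed, with 2.59 and 2.57 FPKM with olaparib and 0.933 and 1.08 FPKM with DMSO. BAX, the pore-forming effector of the mitochondrial pathway, rose by 0.51 and the death receptor TNFRSF10B by 0.31. EDA2R, a receptor of the TNF family, had 7.62 and 6.73 FPKM with olaparib and 3.74 and 3.90 FPKM with DMSO. The antiapoptotic BCL2L1 did not pass, at −0.11.

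**Figure D1:**
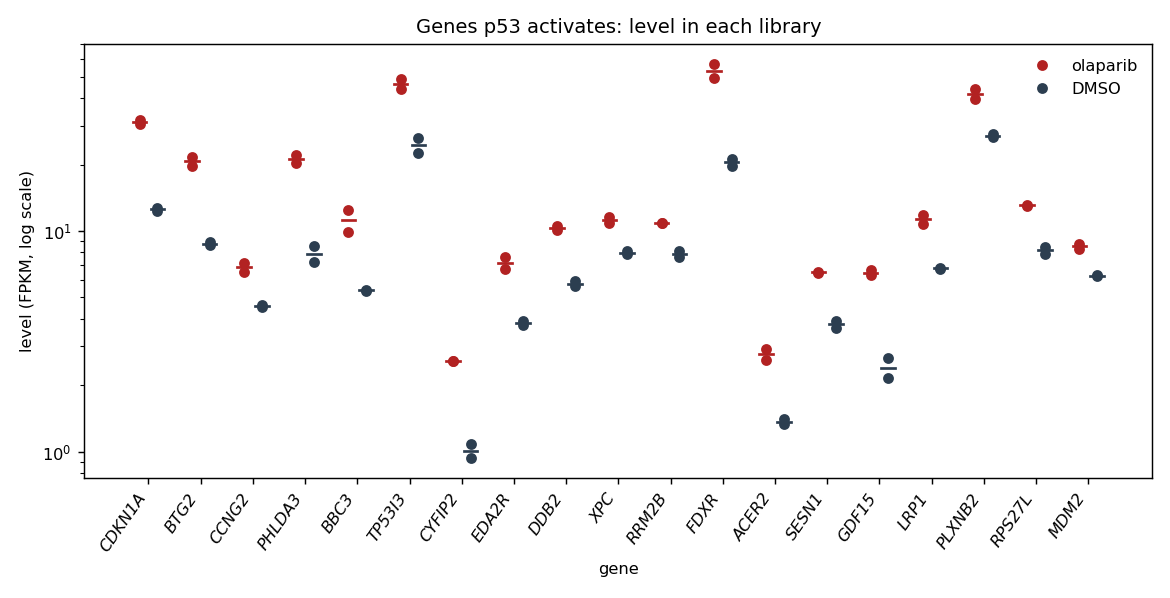
Level of 19 genes that p53 activates, in FPKM on a log scale, with a point for each of the 2 olaparib and 2 DMSO libraries and a bar at the group mean (SD not drawn, n = 2). The genes drawn were chosen among those that passed, and both olaparib libraries sit above both DMSO libraries for each. That held for 75 of the 90 tested targets.

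Of the repair and nucleotide genes 4 of 6 rose (66.7%, beside 4.13% of all genes). DDB2, which recognises UV lesions in chromatin, had 10.5 and 10.1 FPKM with olaparib and 5.91 and 5.63 FPKM with DMSO (0.74 ± 0.04, limma adjusted p = 0.00175). XPC, its partner in nucleotide excision repair, had 11.6 and 10.8 FPKM with olaparib and 7.85 and 8.10 FPKM with DMSO. RRM2B, the p53-induced subunit of ribonucleotide reductase, had 10.9 and 10.8 FPKM with olaparib and 8.13 and 7.62 FPKM with DMSO. RRM2, the subunit used in S phase, went the other way and is described with the replication genes. POLH, a polymerase that copies past lesions, rose by 0.22.

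Among the metabolic, redox and autophagy targets 12 of 21 rose (57.1%, beside 4.13% of all genes). FDXR, a mitochondrial ferredoxin reductase at 74862497 to 74873031 of chromosome 17 (GRCh38, GENCODE v29), had the largest fold change of any protein-coding gene that passed on the scale of log2(FPKM + 1), which understates changes of low genes. As a ratio of mean FPKM it was 2.61-fold higher, below GDF15 (2.69-fold) and PHLDA3 (2.68-fold). Its levels were 49.3 and 57.2 FPKM with olaparib and 19.7 and 21.2 FPKM with DMSO (1.34 ± 0.09, limma adjusted p = 0.00328). ACER2, an alkaline ceramidase, had 2.60 and 2.93 FPKM with olaparib and 1.40 and 1.33 FPKM with DMSO. SPATA18, a factor for mitochondrial quality control, had 1.75 and 2.11 FPKM with olaparib and 0.859 and 0.822 FPKM with DMSO. SESN1, a sestrin that restrains the growth kinase mTORC1, had 6.43 and 6.55 FPKM with olaparib and 3.65 and 3.91 FPKM with DMSO. DRAM1, a lysosomal protein of autophagy, rose by 0.58.

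The secreted and membrane targets had 15 of 27 members higher (55.6%, beside 4.13% of all genes). GDF15, a stress cytokine, had 6.29 and 6.63 FPKM with olaparib and 2.15 and 2.64 FPKM with DMSO (1.14 ± 0.12, limma adjusted p = 0.00858). LRP1, an endocytic receptor, had 10.8 and 11.8 FPKM with olaparib and 6.77 and 6.75 FPKM with DMSO. PLXNB2, a semaphorin receptor, had 39.5 and 43.9 FPKM with olaparib and 26.7 and 27.4 FPKM with DMSO.

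Of the regulators of p53, 5 of 10 rose. MDM2 had 8.76 and 8.32 FPKM with olaparib and 6.30 and 6.27 FPKM with DMSO, a log2 fold change of 0.39 ± 0.06. RPS27L, which stabilises p53 through MDM2, had 13 and 13.1 FPKM with olaparib and 7.83 and 8.49 FPKM with DMSO. The kinase PLK3 and the RNA-binding protein ZMAT3 rose by 0.53 and 0.39, and the phosphatase PPM1D by 0.36. MDM4, the other inhibitor of p53, had 7.39 and 7.05 FPKM with olaparib and 8.23 and 7.77 FPKM with DMSO and did not pass (−0.13, limma adjusted p = 0.103).

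Leaving out olaparib replicate 1 left 29 p53 targets called higher, and leaving out olaparib replicate 2 left 13. Without DMSO replicate 1 the count was 6, and without DMSO replicate 2 it was 12. Only 10 genes of the whole table passed in each of these 4 fits, all of them higher with olaparib: FDXR, PHLDA3, CDKN1A, BTG2, DDB2, SESN1, PBXIP1 (an estrogen receptor-binding protein), and 3 noncoding genes, among them the pseudogenes AC119751.3 and AL645939.2. The first 6 belong to the p53 list. PBXIP1 had 5.79 and 5.92 FPKM with olaparib and 3.58 and 3.47 FPKM with DMSO. Both pseudogenes rested on few reads, 60 and 77 against 35 and 34 for AC119751.3 and 13 and 14 against 6 and 5 for AL645939.2, olaparib first.

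Genes that hold back mTORC1, the kinase that couples nutrients to growth, include the sestrins, which p53 activates. Of 14 tested mTORC1 brakes 5 rose (35.7%, beside 4.13% of all genes) and none fell, and SESN1, SESN2 and PRKAB1 are also in the p53 list. SESN2, the leucine-sensing sestrin, had 30.4 and 33.5 FPKM with olaparib and 21.3 and 20.5 FPKM with DMSO. DDIT4, which inhibits mTORC1 through the TSC complex, had 21.4 and 22.4 FPKM with olaparib and 14.5 and 15.2 FPKM with DMSO (0.53 ± 0.04, limma adjusted p = 0.00402). SESN3 and the AMPK subunit PRKAB2 rose by 0.30 and 0.24, and TSC1 and TSC2 did not pass, at 0.08 and 0.19. Of 33 lysosomal genes 3 rose (9.09%, beside 4.13% of all genes), namely the progranulin gene GRN by 0.48, the acid glucosidase GAA by 0.45 and the peptidase TPP1 by 0.20. The thioesterase PPT1 alone fell, by 0.28 (3.03%, under the 10.5% of all genes).

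Of 141 tested genes of ribosome production 93 were lower with olaparib, none was higher and 48 did not pass, beside 10.5% of all genes lower. The median log2 fold change was −0.24, and both olaparib libraries lay below both DMSO libraries for 132 of the 141, beside 38.6% of all genes. In fits that left out 1 library, 0 to 21 members passed, the 0 without DMSO replicate 1.

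Promoter windows are shown for the MYC motif named above. In RefSeq promoters (GRCh38.p14, 250 bases before to 50 after the gene start), CACGTG was found in 37 of 119 ribosome biogenesis promoters (31.1%) and in 900 of all 8387 tested protein-coding promoters matched by symbol (10.7%). It was in 1 of 16 promoters of cytosolic tRNA synthetases (6.25%) and in 4 of 39 promoters of chaperones (10.3%), neither above the share of all promoters. These list shares count members whether they passed or not, so they do not describe the olaparib response. CACGTG reads the same on both strands. The 6 lower members with the largest fold changes that carry it are printed with 12 bases on each side and the motif in capitals, 5′ to 3′ on the gene's strand, 2 of them for proteins of the large subunit (EBNA1BP2, MRTO4), 3 for the small subunit (PNO1, UTP20, LTV1) and 1 for RNA polymerase I (CD3EAP).
EBNA1BP2: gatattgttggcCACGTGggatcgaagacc
PNO1: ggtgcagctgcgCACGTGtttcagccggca
CD3EAP: cccctttggatcCACGTGgtctgcaacctg
UTP20: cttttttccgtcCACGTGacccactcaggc
MRTO4: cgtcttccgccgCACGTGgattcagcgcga
LTV1: gtcctggggctgCACGTGtggtgaggccta

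These windows lie at chr1:43172790-43172819 on the minus strand for EBNA1BP2, and on the plus strand at chr2:68157885-68157914 for PNO1, chr19:45406620-45406649 for CD3EAP, chr12:101280083-101280112 for UTP20, chr1:19251807-19251836 for MRTO4 and chr6:143843354-143843383 for LTV1. The share with CACGTG was 13.5% of 1080 promoters of lower genes and 8.19% of 354 promoters of higher genes. The ETS-like motif CCGGAAG, searched on both strands, was in 42.0% of the ribosome biogenesis promoters, 28.7% of lower genes, 10.2% of higher genes and 21.4% of all. The 20-base p53 site, allowing at most 2 mismatches, was in 2 of 75 promoters of the p53 list and in 14 of all 8387. It was in 1 of the 354 promoters of higher genes and in 1 of the 1080 of lower genes. A motif match is a description of these letters and not a bound site.

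Small subunit processome factors had 36 of 49 members lower (73.5%, beside 10.5% of all genes). PNO1, an assembly factor of the small subunit, had 15.5 and 15.1 FPKM with olaparib and 20.3 and 22.2 FPKM with DMSO (−0.44 ± 0.06, limma adjusted p = 0.0127). MPHOSPH10, a processome component, had 13.4 and 13 FPKM with olaparib and 17.7 and 17.6 FPKM with DMSO. UTP20 had 10.8 and 10.5 FPKM with olaparib and 14.4 and 14.2 FPKM with DMSO, and UTP11 had 23.8 and 24.1 FPKM with olaparib and 31.4 and 31.9 FPKM with DMSO. For each of these 4 genes the groups were separated by more than the spread within either.

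Large subunit factors had 36 of 53 lower (67.9%, beside 10.5% of all genes). EBNA1BP2, a nucleolar assembly factor, had 22.7 and 24.5 FPKM with olaparib and 32.5 and 33.2 FPKM with DMSO (−0.46 ± 0.05, limma adjusted p = 0.00955). MAK16, another assembly factor, had 8.79 and 8.80 FPKM with olaparib and 12.5 and 12.3 FPKM with DMSO, and RPF2, which loads the 5S particle, had 14.6 and 14.2 FPKM with olaparib and 19.3 and 19.2 FPKM with DMSO. The helicase DDX21 had 95.8 and 91.8 FPKM with olaparib and 125 and 124 FPKM with DMSO.

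RNA polymerase I, which transcribes ribosomal RNA, had 8 of 16 tested members lower, with the subunits CD3EAP at −0.39 and TWISTNB at −0.32 and the initiation factor RRN3 at −0.29. RRN3 had 19.8 and 20.1 FPKM with olaparib and 24.9 and 24.5 FPKM with DMSO. The promoter factor UBTF and the largest subunit POLR1A did not pass. Among proteins of the small nucleolar particles 8 of 13 fell (61.5%, beside 10.5% of all genes). They included the pseudouridine synthase DKC1, with 45.1 and 45.7 FPKM with olaparib and 56.9 and 56.5 FPKM with DMSO. Its chaperone NOLC1 also fell, with 121 and 120 FPKM with olaparib and 152 and 150 FPKM with DMSO. The methyltransferase FBL did not pass.

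Of the nucleolar growth proteins 5 of 10 fell. NPM1, nucleophosmin, had 634 and 631 FPKM with olaparib and 766 and 778 FPKM with DMSO (−0.29 ± 0.04, limma adjusted p = 0.0113). NCL, nucleolin, had 253 and 257 FPKM with olaparib and 316 and 313 FPKM with DMSO. LYAR, a nucleolar growth regulator, had 31.3 and 32.5 FPKM with olaparib and 46.6 and 43.1 FPKM with DMSO (−0.48 ± 0.05). POLR3G, a subunit of RNA polymerase III typical of undifferentiated cells, had 7.33 and 6.58 FPKM with olaparib and 10.2 and 9.93 FPKM with DMSO. NPM1 has many pseudogene copies, so its level is uncertain where reads could be split among them.

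Of the 51 cytosolic ribosomal protein genes, whose products the assembly factors handle, 4 were lower (7.84%, under the 10.5% of all genes), RPL32, RPS7, RPS13 and RPS24 at −0.18 to −0.17. Their median log2 fold change was −0.07, beside −0.24 for the ribosome biogenesis list, and the contrast between the lists was not tested. Of 38 initiation and elongation factors 15 were lower (39.5%), with EIF5, EIF2S2, EIF3J and EIF4E at −0.35 to −0.29.

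**Figure D2:**
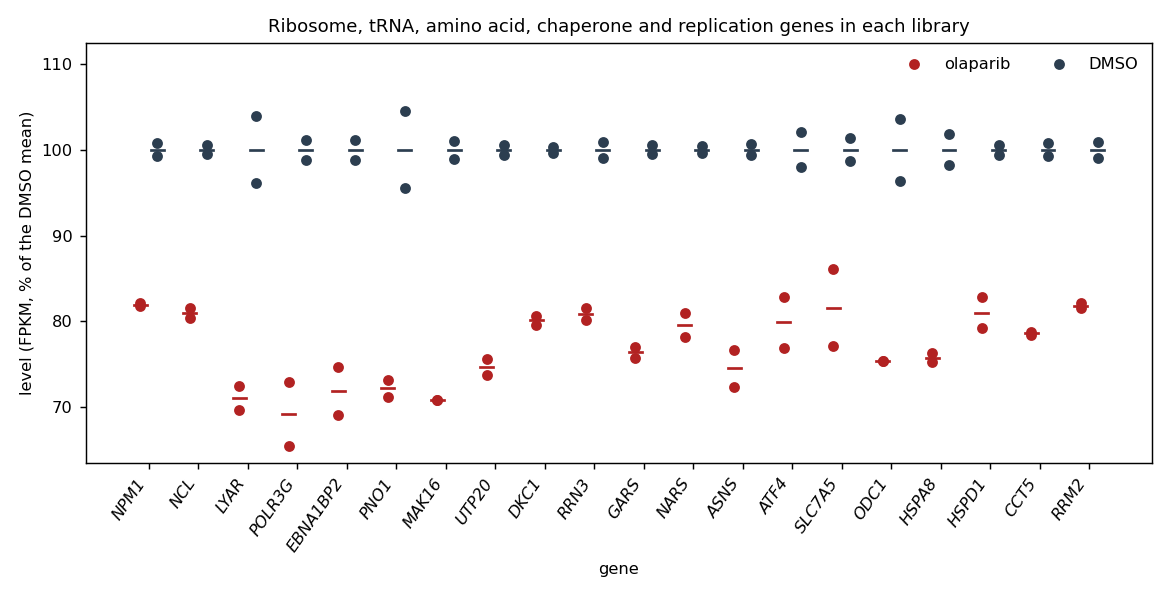
Level of 20 genes of ribosome production, tRNA charging, amino acid supply, protein folding and replication as a percentage of the DMSO mean, with a point for each of the 2 olaparib and 2 DMSO libraries and a bar at the group mean (n = 2). The genes drawn were chosen among those that passed lower with olaparib. The olaparib libraries lie between 65.4% and 86.1% and the DMSO libraries between 95.5% and 104%.

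In tRNA charging and amino acid supply 31 of 59 members were lower, none was higher and 28 did not pass, beside 10.5% of all genes lower. Among the 20 cytosolic tRNA synthetases, which attach amino acids to their tRNAs, 15 fell. GARS, for glycine, had 36.6 and 37.1 FPKM with olaparib and 48.5 and 48.0 FPKM with DMSO (−0.38 ± 0.04, limma adjusted p = 0.00955). NARS, for asparagine, had 62.2 and 60.0 FPKM with olaparib and 76.4 and 77.1 FPKM with DMSO, and CARS, for cysteine, had 2.82 and 2.78 FPKM with olaparib and 3.86 and 3.88 FPKM with DMSO. The 5 that did not pass were DARS, FARSA, VARS, SARS and QARS.

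ATF4, the transcription factor of the amino acid response, was itself lower, with 96.4 and 104 FPKM with olaparib and 128 and 123 FPKM with DMSO (−0.32 ± 0.05, limma adjusted p = 0.0131). Its target ASNS, asparagine synthetase, had 8.37 and 7.90 FPKM with olaparib and 10.8 and 11 FPKM with DMSO. MTHFD2, a mitochondrial folate enzyme, had 19.9 and 19.5 FPKM with olaparib and 25.4 and 25.8 FPKM with DMSO. SLC7A5, the large neutral amino acid transporter, had 89.1 and 99.5 FPKM with olaparib and 117 and 114 FPKM with DMSO, and its partner SLC3A2 fell by 0.28. The stress genes CHAC1, DDIT3 and TRIB3, which ATF4 also drives, did not pass.

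The core of the ATF4 and CEBP composite element, searched as TGATGNAA on both strands, was present in 6 of 16 tRNA synthetase promoters (37.5%) and in 129 of the 8387 (1.54%). The 3 lower synthetases with the largest fold changes that carry it are printed with 11 bases on each side and the match in capitals, which reads TGATGNAA on the gene's strand for NARS and on the opposite strand for CARS and TARS.
CARS: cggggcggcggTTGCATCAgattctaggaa
NARS: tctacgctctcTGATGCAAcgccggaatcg
TARS: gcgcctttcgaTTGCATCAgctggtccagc

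These lie at chr11:3057407-3057436 on the minus strand for CARS, chr18:57621804-57621833 on the minus strand for NARS and chr5:33440956-33440985 on the plus strand for TARS. The element was in 2.59% of promoters of lower genes and in 1.98% of promoters of higher genes. The synthetase share counts members whether they passed or not.

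Chaperones, which fold new proteins, had 31 of 42 members lower and none higher, beside 10.5% of all genes lower, and a median of −0.24. HSPA8, the constitutive HSP70 of the cytosol, had 477 and 471 FPKM with olaparib and 614 and 637 FPKM with DMSO (−0.40 ± 0.05, limma adjusted p = 0.0111). HSPD1, the mitochondrial chaperonin, had 337 and 322 FPKM with olaparib and 405 and 409 FPKM with DMSO. Of the chaperonin ring CCT, CCT5 had 67.8 and 68.0 FPKM with olaparib and 85.7 and 87.0 FPKM with DMSO. The HSP90 co-chaperone FKBP4 had 35.1 and 36.2 FPKM with olaparib and 46.5 and 46.1 FPKM with DMSO. The heat-inducible HSPA1B, HSPB1, DNAJB1 and BAG3 did not pass. Processed copies of HSPA8 make its level uncertain.

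Polyamine synthesis had 3 of 11 genes lower (27.3%, beside 10.5% of all genes) and 1 higher (9.09%, beside 4.13%). ODC1, ornithine decarboxylase and a classical MYC target, had 89.5 and 89.6 FPKM with olaparib and 115 and 123 FPKM with DMSO (−0.40 ± 0.04, limma adjusted p = 0.00941). AMD1 and SMS, the later synthetic enzymes, fell by 0.29 and by 0.16, and the oxidase PAOX rose by 0.39.

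**Figure D3:**
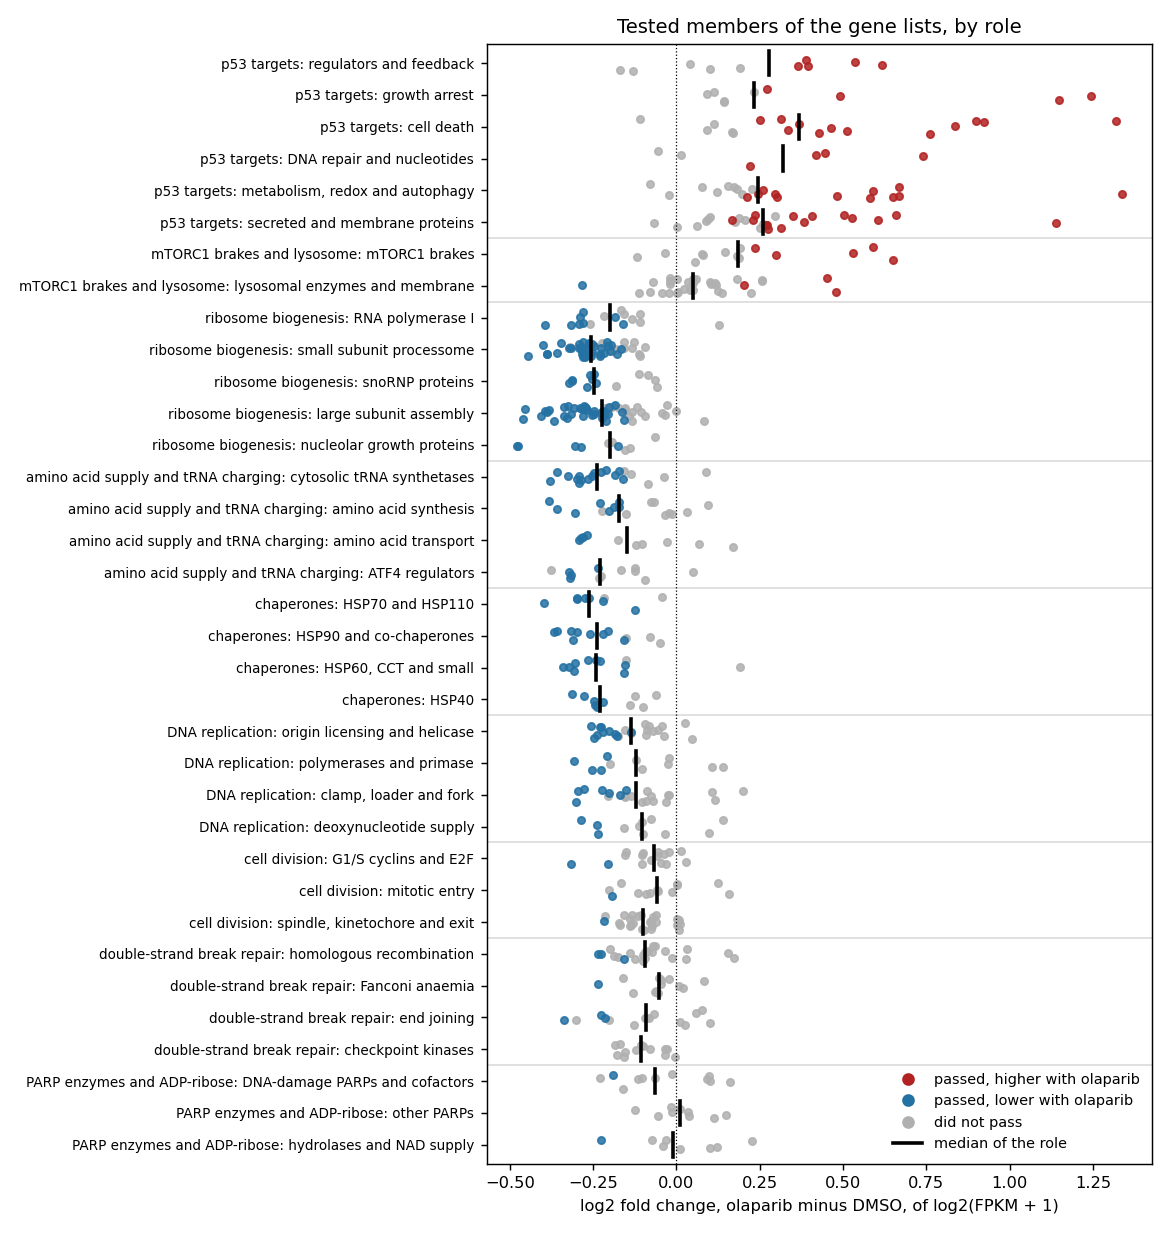
Log2 fold change (olaparib minus DMSO) of every tested member of 9 gene lists, 1 row for each role, with red and blue points for members that passed higher and lower, grey for the rest and a black bar at the role's median. The p53 roles lie to the right, with medians of 0.23 to 0.37. The roles of ribosome production, amino acid supply and folding lie to the left, with medians of −0.26 to −0.15. The PARP and repair roles have medians of −0.11 to 0.01.

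Of the DNA replication genes 24 of 67 were lower (35.8%, beside 10.5% of all genes) and none was higher, with a median of −0.12. Origin licensing and the replicative helicase had 10 of 23 lower, led by DBF4, ORC3, MCM10 and GINS2 at −0.26 to −0.23. RRM2, ribonucleotide reductase's S-phase subunit, had 68.5 and 68.0 FPKM with olaparib and 82.6 and 84.2 FPKM with DMSO (−0.29 ± 0.04, limma adjusted p = 0.0127), while RRM2B rose. The clamp loader subunits DSCC1 and RFC3 fell by 0.30 and by 0.28, and the clamp PCNA did not pass. Cell division genes had 4 of 55 lower (7.27%, under the 10.5% of all genes), CDC25A, SKP2, KIF23 and CCNA2. CDC25A, the phosphatase that licenses entry into S phase, had 27.0 and 30.2 FPKM with olaparib and 34.8 and 36.9 FPKM with DMSO. MKI67 had 31.9 and 32.5 FPKM with olaparib and 35.8 and 36.3 FPKM with DMSO and did not pass (limma adjusted p = 0.0607), nor did E2F1, CCND1 and CDK4.

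The targets of the drug did not pass, and few of the repair genes did. PARP1 had 98.8 and 101 FPKM with olaparib and 107 and 107 FPKM with DMSO (−0.10 ± 0.03, limma adjusted p = 0.0661), and PARP2 had 10.8 and 10.6 FPKM with olaparib and 13.2 and 12.3 FPKM with DMSO (−0.23 ± 0.06, limma adjusted p = 0.0563). Both olaparib libraries lay below both DMSO libraries for both genes, yet neither passed. Of the 28 PARP, ADP-ribose and NAD genes 2 were lower (7.14%, under the 10.5% of all genes): APTX, an end-processing enzyme, fell by 0.19 and NAMPT, of NAD supply, by 0.23. PARG, which removes poly(ADP-ribose), had 8.28 and 8.04 FPKM with olaparib and 8.10 and 8.61 FPKM with DMSO. Double-strand break repair had 7 of 63 genes lower and none higher, 11.1% and so near the 10.5% of all genes that the count says nothing of these members as a group: SHLD2, XRCC5 and XRCC6 of end joining or its control, RBBP8, NBN and EXO1 of end resection, and the Fanconi ligase UBE2T. SHLD2, a subunit of shieldin, had 14.4 and 13.7 FPKM with olaparib and 18.2 and 17.8 FPKM with DMSO. Of the 63 repair genes 51 had a fold change below 0, beside 7201 of all 12443 genes, and the median was −0.09, beside −0.03 over all genes. With each library's trend on transcript GC content removed, the median of the repair genes was −0.03, beside −0.002 over all genes. Both olaparib libraries lay below both DMSO libraries for 37 of the 63 and above for 5, beside 38.6% and 23.3% of all genes. BRCA1 and BRCA2 did not pass, at −0.09 and −0.17. The 13 checkpoint genes, ATM, ATR and CHEK1 among them, ranged over −0.19 to 0.00 and did not pass either.

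Interferon-stimulated genes showed no common direction. Of 18 tested, 2 rose and 2 fell (11.1% each way, beside 4.13% and 10.5% of all genes). IFI6 and STAT2 rose, by 0.56 and 0.23, and IFITM2 and IFITM3 fell, by 0.28 and by 0.20. IFI6 had 16.7 and 13.8 FPKM with olaparib and 10.2 and 9.71 FPKM with DMSO. Of 8 class I and peptide loading genes 3 rose (37.5%, beside 4.13% of all genes) and none fell. HLA-C, HLA-B and the loading chaperone TAPBP rose by 0.30, 0.27 and 0.22. HLA and IFITM genes share near-identical sequence, so their values are uncertain. In energy metabolism 12 of 31 respiratory chain subunits fell (38.7%, beside 10.5% of all genes), led by CYCS at −0.31. Of 24 glycolysis and hypoxia genes 8 fell (33.3%, beside 10.5%), led by LDHA. In that role 2 rose (8.33%, beside 4.13% of all genes), PFKL and PFKFB4. LDHA had 203 and 198 FPKM with olaparib and 240 and 243 FPKM with DMSO. Of the 13 mitochondrially encoded genes 1 rose (7.69%, beside 4.13% of all genes), MT-ATP8 at 0.57, and it overlaps MT-ATP6. Of 14 feedback genes of MAP kinase signalling 3 fell (21.4%, beside 10.5% of all genes), DUSP2, DUSP6 and SPRY4 at −0.40 to −0.28. SPRED3 rose, at 0.29 (7.14%, beside 4.13% of all genes).

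Among the 12 protein-coding genes with the lowest fold changes were YRDC, which makes the threonylcarbamoyl modification of tRNA, with 13.8 and 13 FPKM with olaparib and 21.0 and 18.7 FPKM with DMSO, and TFRC, the transferrin receptor, with 37.2 and 34.9 FPKM with olaparib and 50.3 and 49.0 FPKM with DMSO. YRDC had the lowest log2(FPKM + 1) fold change of any protein-coding gene that passed (−0.53 ± 0.07, limma adjusted p = 0.0113). The telomerase inhibitor PINX1, the kinase AK6, the mitochondrial folate carrier SLC25A32, SMN1 and the fatty acid-binding protein FABP5 were in that range too, at −0.48 to −0.44, with LYAR, POLR3G, EBNA1BP2, MAK16 and PNO1 of ribosome production. SMN1 has the near-identical copy SMN2. The 12 highest held 10 genes of the p53 list, with the zinc finger gene ZSWIM4 at 0.79 and the ESCRT subunit VPS37D at 0.68 as the others.

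Small noncoding genes had the widest fold changes, often on few reads. 7SK, the RNA that holds the elongation kinase P-TEFb inactive, had 23.1 and 48.4 FPKM with olaparib and 1.12 and 2.05 FPKM with DMSO (3.77 ± 0.52, limma adjusted p = 0.0126), from 179 and 457 reads with olaparib and 12 and 20 with DMSO. It lies at 52995620 to 52995950 of chromosome 6 (GRCh38), and it carries no poly(A) tail, so its level after polyA selection need not follow its abundance. The 2 palbociclib libraries held 23.9 and 7.67 FPKM of it. Genes for protein partners of 7SK, such as HEXIM1, LARP7 and MEPCE, did not pass. MIR576 was listed at 0 in both olaparib libraries and at 0.942 and 2.07 FPKM with DMSO, from 3 and 6 reads.

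Transcript GC content moved with the fold changes. Protein-coding genes that were higher had a median GC content of 58.3% in their longest transcript, those that were lower 43.6%, and those tested 48.3%. In the lowest of 10 equal bins of GC content (30.2% to 38.3%) the median log2 fold change was −0.10, with 0.786% higher and 17.0% lower, and in the highest bin (62.0% to 75.8%) it was 0.10, with 12.3% higher and 1.28% lower. Across 10175 protein-coding genes, which share the same 4 libraries, Spearman's rho between GC content and fold change was 0.42. Both olaparib libraries showed the slope against the DMSO mean, from −0.07 to 0.04 in replicate 1 and from −0.12 to 0.16 in replicate 2. Between replicates the difference had a rho with GC content of −0.60 in olaparib, −0.57 in the combination, −0.29 in palbociclib and −0.01 in DMSO. The part of GC content in the other calls was not tested.

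With each library's GC trend removed, an alternative chosen after seeing the data, 792 genes were higher (6.37%) and 1251 lower (10.1%). Of the genes called on the deposited scale, 454 of the 514 higher and 895 of the 1307 lower were called the same way in both. The p53 list then had 66 of 90 higher and a median of 0.29, and the ribosome biogenesis list 97 of 141 lower and a median of −0.20. Amino acid supply had 33 of 59, chaperones 34 of 42 and replication 22 of 67 lower. Lysosomal genes had 11 of 33 higher and 1 lower, and the mTORC1 brakes 6 of 14 higher and 0 lower. Of the genes named above, FDXR had a log2 fold change of 1.26, CDKN1A 1.21, EBNA1BP2 −0.43 and HSPA8 −0.35 in that fit. Calls were lost in it for 15 named genes, among them EXO1, NBN, UBE2T, CCNA2, RPS24, RPS7, RPL32, SPRED3 and HLA-B.

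**Figure D4:**
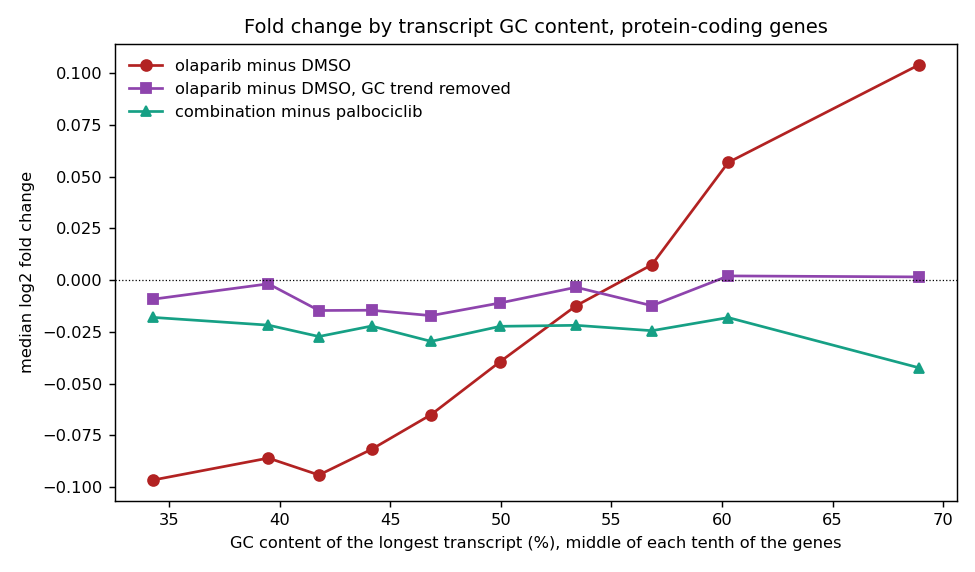
Median log2 fold change of protein-coding genes in 10 bins of transcript GC content (%), for olaparib minus DMSO, for the same with each library's GC trend removed, and for the combination minus palbociclib. The first line climbs, its lowest bin at −0.10 and its highest at 0.10, and the other lines stay between −0.04 and 0.00.

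Leaving out 1 library removed most of the lower calls. On the deposited scale the ribosome biogenesis members called lower numbered 21 without olaparib replicate 1, 3 without olaparib replicate 2, 0 without DMSO replicate 1 and 3 without DMSO replicate 2, and limma gave 2840 genes with an unadjusted p under 0.05 in the fit without DMSO replicate 1. Chaperones numbered 12, 0, 0 and 0, amino acid supply 7, 0, 0 and 0, and replication 3, 0, 0 and 0, in the same order. With the GC trend removed the corresponding counts were 52, 60, 49 and 53 for ribosome biogenesis, 20, 20, 18 and 18 for chaperones, 18, 22, 15 and 18 for amino acid supply, 5, 4, 7 and 3 for replication and 47, 41, 35 and 41 p53 targets higher. In all 5 fits of that scale, and in the fit on the deposited scale, 156 genes were higher and 207 lower.

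The combination and palbociclib groups gave a second look at the olaparib effect in other libraries, since they share none with the comparison above. Of the 514 genes higher with olaparib alone, 445 (86.6%) also lay above 0 in the combination minus palbociclib, with a median of 0.10, and of the 1307 lower genes 1246 (95.3%) lay below 0, with a median of −0.11. Over all tested genes 42.0% lay above 0. FDXR had 38.4 and 45.2 FPKM in the combination and 27.4 and 26.8 FPKM with palbociclib (0.60 ± 0.09, limma adjusted p = 0.121). The median log2 fold change was 0.14 for the p53 list and −0.13 for ribosome biogenesis, amino acid supply and chaperones, beside 0.26, −0.24, −0.19 and −0.24 for olaparib alone.

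By limma 1 gene was higher and 2 were lower in the combination than with palbociclib (0.00804% and 0.0161%, together 0.0241% of genes), with 2067 at an unadjusted p under 0.05. Removing the GC trend gave 62 higher and 146 lower, among them 22 p53 targets higher and 17 ribosome biogenesis genes lower. The difference between the 2 olaparib effects passed for 1 gene, ENSG00000274519 (0.00804%), so a smaller effect beside palbociclib was not shown for any p53 target by limma, with 1315 genes at an unadjusted p under 0.05.

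**Figure D5:**
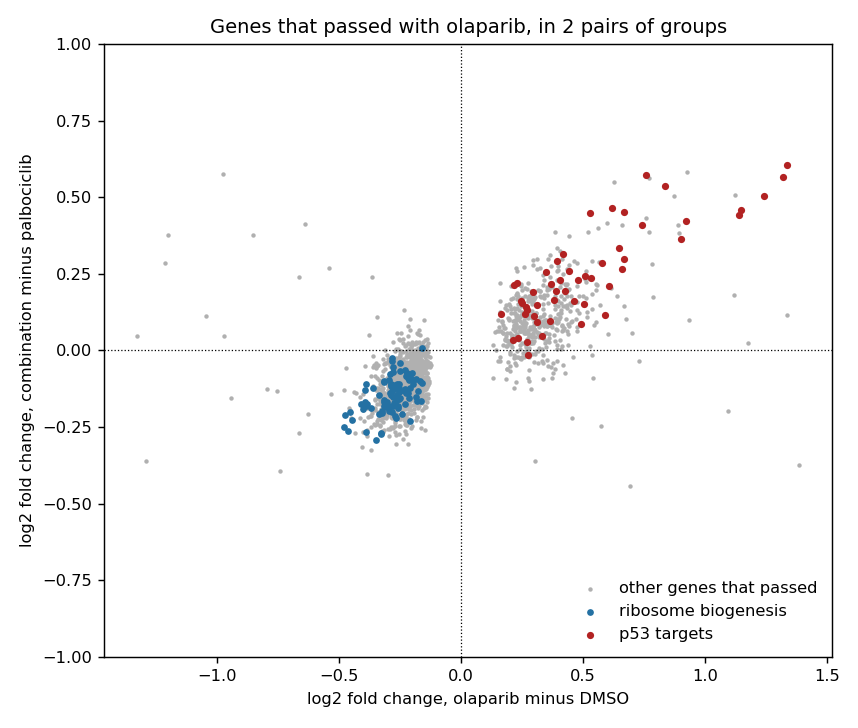
Log2 fold changes of the genes that passed with olaparib alone: olaparib minus DMSO on the horizontal axis and combination minus palbociclib, from 4 other libraries, on the vertical axis, with p53 targets in red, ribosome biogenesis genes in blue and the rest in grey. Of the 1821 genes 3 fall outside the plotted range. Most red points lie in the upper right and most blue points in the lower left, nearer to 0 on the vertical axis.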

How the data were processed

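PolyA RNA libraries were made with the NEBNext Ultra kit after TRIzol extraction, per the labels' protocols. Per the submitters' processing notes, which give no role or order, the tools were CASAVA 1.8, STAR 2.5.1b and HTSeq 0.6.0, with GRCh38 and hg38 as builds. The authors deposited FPKM values, not counts. With GENCODE v29 exon lengths, 28635 of 31721 genes (90.3%) gave whole reads within 0.01 in every library, 3085 more did with a searched length, and limma's voom on these reads called 1081 genes higher and 2099 lower. The main fit was limma 3.58.1 in R 4.3.3 on log2(FPKM + 1), with a trend and 1 mean for each of 4 groups. It used all 8 libraries and genes with a mean of at least 1 FPKM, with 4 residual and 3.01 prior degrees of freedom. The fit was also run on simulated data, which held no GC difference between replicate libraries and so do not vouch for these calls. The pseudocount of 1 understates changes of low genes. Permuting 2 libraries against 2 exactly allows no p below 0.333, so that test was not used. The GC alternative subtracted from each library a loess (span 0.3) of its deviation from the gene mean on transcript GC content. The level filter, the 16 gene lists and the tests were chosen with earlier results of these data known. Named genes were the 12 highest and 12 lowest protein-coding genes that passed with separate libraries, up to 4 passing members with the largest fold change of each role, 19 fixed genes, the 5 highest and 5 lowest noncoding genes, and, added after values were seen, genes that passed in all fits without a library; other list members are named by their call, after their values were seen. Promoters are RefSeq's, 8387 matched. Alternatives were a pseudocount of 0.1, no filter, a filter of 5 FPKM, the 4 libraries alone, quantile normalisation, TPM, no trend, voom, the replicate number as a block, and leaving out single libraries, where the lone library is assumed to vary like the other groups. A few genes that the rule names are not reported here.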

Additional observations from a re-analysis of the deposited data

Results flagged for a closer look

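Among the named genes and those whose difference passed, 4 had both olaparib libraries on one side of both DMSO libraries and both combination libraries on the other side of both palbociclib libraries. By sign alone, 69 of the 514 genes higher with olaparib lay below 0 and 61 of the 1307 lower genes lay above 0 in the combination minus palbociclib. 7SK was higher with olaparib than with DMSO in both libraries and lower in the combination (4.14 and 2.90 FPKM) than with palbociclib (23.9 and 7.67 FPKM), a difference of −5.48 on the log2 scale (limma adjusted p = 0.232). MIR4312 had 0.562 and 2.31 FPKM with olaparib and 4.45 and 4.01 FPKM with DMSO, from at most 11 reads, and 6.61 and 5.06 FPKM in the combination and 4.80 and 3.71 FPKM with palbociclib, a difference of 1.58 (limma adjusted p = 0.443). PFKL, the liver phosphofructokinase, had 26.5 and 29.3 FPKM with olaparib and 22.1 and 23.5 FPKM with DMSO, and 22.8 and 24.2 FPKM in the combination and 24.4 and 24.8 FPKM with palbociclib, a difference of −0.34 (limma adjusted p = 0.429). Only the difference for ENSG00000274519, which has no name in the annotation used, passed: −1.90 ± 0.13 (limma adjusted p = 0.0221). It had 7.01 and 8.62 FPKM with olaparib and 5.04 and 4.44 FPKM with DMSO, from 8 to 15 reads, and 4.49 and 4.41 FPKM in the combination and 12.7 and 11.8 FPKM with palbociclib.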

How the results depend on the processing

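No named gene changed direction with a call under any alternative. Counts of genes higher and lower moved as follows. Without a filter 165 were higher and 436 lower; the 4 libraries alone gave 340 higher; TPM gave 939 higher and 473 lower; voom gave 1081 higher and 2099 lower; quantile normalisation gave 398 lower and no trend 800 lower. Removing the GC trend, chosen after seeing the data, gave 792 higher. Leaving out 1 olaparib or DMSO library gave 13 to 132 higher and 0 to 136 lower, and 293, 266, 231 and 285 higher and 422, 483, 367 and 392 lower with the GC trend removed too (without olaparib replicates 1 and 2, then DMSO replicates 1 and 2). By list, no filter gave 29 p53 targets higher and 46 ribosome biogenesis, 14 amino acid, 16 chaperone and 10 replication genes lower; quantile normalisation gave 52, 14, 13 and 6 lower in these 4 lists, and TPM 59 ribosome biogenesis and 9 replication genes. Leaving out 1 library gave 6 to 29 p53 targets higher, 0 to 21 ribosome biogenesis, 0 to 7 amino acid, 0 to 12 chaperone and 0 to 3 replication genes lower; with the GC trend removed too these were 35 to 47 p53 targets, 52, 60, 49 and 53 ribosome biogenesis, 15 to 22 amino acid, 18 to 20 chaperone and 5, 4, 7 and 3 replication genes. In the combination against palbociclib, quantile normalisation called 17, TPM 12 and the GC trend removed 208 genes. A fit with the replicate number as a block gave 661 higher and 1451 lower, and 0 genes in place of 1 with a difference of the 2 olaparib effects by limma, with 1651 at an unadjusted p under 0.05. Same-numbered deviations correlated at −0.05 to 0.03 over all tested genes (Pearson), so pairing by number was not seen at that level. Replicate 1 minus 2 had a rho with GC content of −0.60 in olaparib, −0.57 in the combination, −0.29 in palbociclib and −0.01 in DMSO. Whether the number marks a shared step was not tested. Causes were not tested beyond fewer libraries or more genes tested. Small noncoding genes could rest on few reads, as MIR576 did, with 0 reads in both olaparib libraries and 3 and 6 with DMSO, and the part of depth in their calls was not tested.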
